A study of Homo sapiens with 4 samples.

Results

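Solute carrier (SLC) genes encode membrane proteins that move nutrients, ions, metals and metabolites across the plasma membrane and the membranes of organelles, and they are numbered by family. Here they were taken from a table of RNA windows enriched with YTHDF1 in SNU638, an established cell line from a human gastric cancer. Members were the protein-coding genes of the table whose symbol starts with SLC and a digit. These were 114 of the 7550 genes in the table, or of 6679 protein-coding genes, and they held 377 of 26819 listed windows. They came from 34 families, and 4 of them carry an SLC symbol without being transporters: SLC2A4RG, SLC4A1AP, SLC7A6OS and SLC9A3R2.

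The series holds 4 libraries of RNA immunoprecipitation sequencing (RIP-seq), in which RNA recovered with a protein is sequenced beside the total RNA of the lysate. There were 2 YTHDF1 immunoprecipitates (IP-YTHDF1) and 2 inputs, each group with biological replicates 1 and 2. All 4 libraries came from SNU638 cells that overexpressed YTHDF1, spent 24 h without serum and were then kept for 24 h with IFN-γ at 10 ng/ml. Per the methods, the overexpressed YTHDF1 carried a FLAG tag and was recovered through it, so the windows describe the tagged protein in 1 cell line. Libraries of untreated cells, of cells without the added YTHDF1 and of a control antibody were not analysed here, and no window can be assigned to IFN-γ.

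YTHDF1 is a cytoplasmic reader of N6-methyladenosine (m6A), a methyl mark on adenosines of messenger RNA, and is best known for promoting translation of the RNAs it binds. The mark is placed within the consensus DRACH, where D is A, G or T, R is A or G, and H is A, C or T. In tumour cells, solute carriers supply glucose, amino acids and metal ions and remove lactate, and several are well-known targets of growth and stress signalling.

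Each listed window was 50 bases wide and had a signal value and a q-value given once for all libraries. No source gives a scale for the signal value, values under 1 occur, and it is read here only as larger or smaller. No value belonged to a single library, so the spread between the 2 replicates and the depth of each library are unknown, and the 2 groups could not be tested against each other. Differences between genes are therefore given as descriptions. The table was checked against cell type markers: 4 of 6 epithelial genes had a window (EPCAM at 1.70, KRT8 at 1.42, KRT18 at 2.25 and KRT19 at 2.21), CDH1 and CLDN4 had none, and 0 of 3 blood cell and 0 of 3 fibroblast markers had one.

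The sequences below show what YTHDF1-enriched RNA looked like at or near the 5′ end of members on which later results turn. Each is given as 30 bases of a window in the sense of the transcript. They were read from the RefSeq promoter table of GRCh38.p14, which reaches only 50 bases past a transcript start. They therefore belong to windows near a start, of the member itself or of another gene. The coordinates are those of the printed bases, and capitals mark a DRACH match. SLC9A7 was among the members with the largest signal values, SLC7A6OS had its only window here, and SLC38A1, SLC3A2 and SLC1A5 serve amino acid uptake.
SLC9A7, chrX:46759072-46759101, minus strand: gtgctgccaGAACCcgccgacggcgcgggc
SLC7A6OS, chr16:68310874-68310903, minus strand: actccgggtgaagcggaagcgcagtgcgga
SLC38A1, chr12:46268934-46268963, minus strand: cgcgttAAACCatcacaagccatggttgcg
SLC3A2, chr11:62880903-62880932, plus strand: gtagccgAAACTgcgcggaggcacagaggc
SLC1A5, chr19:46788545-46788574, minus strand: ggaggctttctctggctggTAACCgctact

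The signal values of these windows were 2.45 for SLC9A7, 2.88 for SLC7A6OS, 2.32 for SLC38A1, 2.29 for SLC3A2 and 1.82 for SLC1A5. The SLC38A1 window lay at -976 to -927 bases from that gene's nearest start in the promoter table, but inside its RefSeq interval. It was read from the entry of another gene, LOC105378248, and the SLC7A6OS stretch from that of PRMT7. The 4 DRACH matches differed in their letters, and none of these 4 held GGAC, the form of the motif usually described as preferred. Over the 14 member windows with at least 30 covered bases, 8 held DRACH in those bases. The SLC25A36 window among them, at 2.01, held none. Among all member windows with every base in the promoter table, 4 of 8 held DRACH (50%, Wilson 95% interval 21.5 to 78.5) and 2 of 8 held GGAC. DRACH was found in 39.1% of 877 such windows of other protein-coding genes and in 44.8% of the first 50 bases of 22199 protein-coding transcript entries. GGAC, part of DRACH when A, C or T follows, was found in 23.6% and 19.8% of these. Both motifs were searched on the transcript strand only. With 8 windows the interval is wide, and it covered both reference shares.

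SLC genes were represented at about the share of the whole annotation. Of 386 RefSeq protein-coding genes with an SLC symbol, 120 had a listed window under that or another symbol (31.1%, Wilson 95% interval 26.7 to 35.9), against 31.8% of 20056 protein-coding genes. A gene without a window may be unexpressed, expressed without binding or too shallowly sequenced, and these cannot be told apart. Of 57 families in RefSeq, 19 with 63 genes in all had no listed gene. The neurotransmitter and amino acid transporters of SLC6 formed the largest of these, with 0 of 19 genes listed. The organic ion transporters of SLC22 had 2 of 21. By contrast, SLC25, the mitochondrial carriers, had 21 of 48, SLC35, the nucleotide sugar transporters, had 15 of 31, SLC39, the zinc importers, had 7 of 14, and SLC12, the cation-chloride cotransporters, had 5 of 9.

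**Figure D1:**
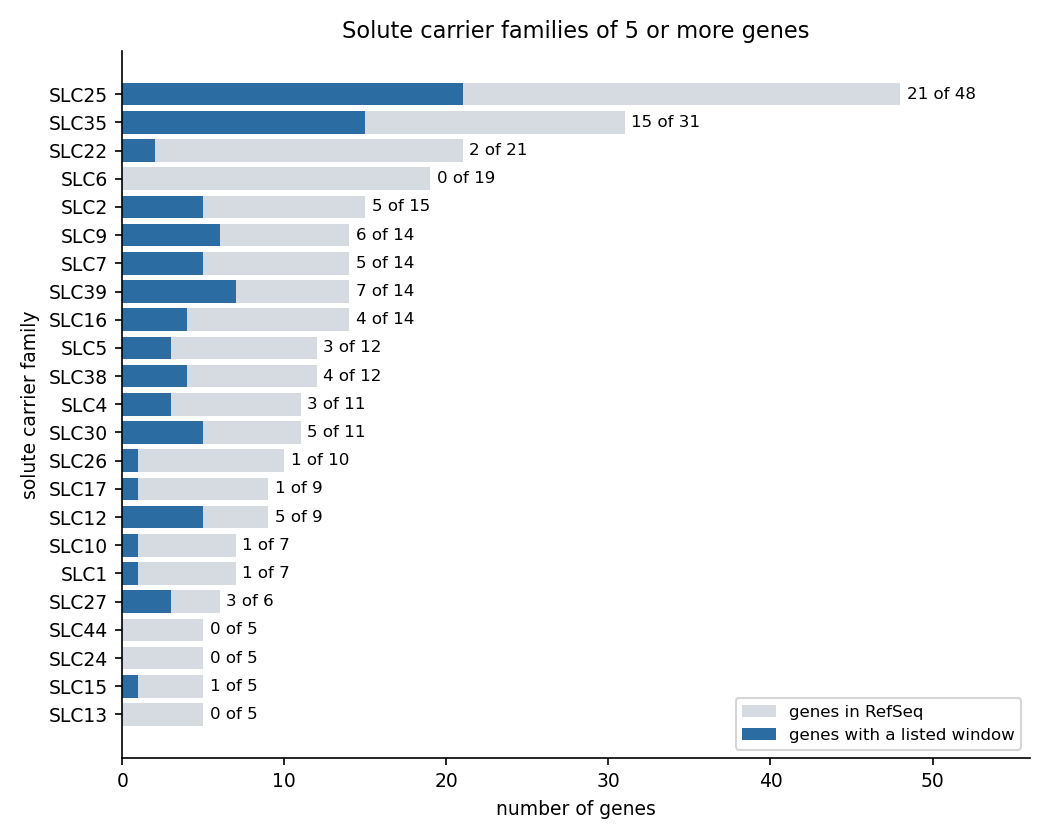
Number of genes (horizontal axis) in solute carrier families of 5 or more RefSeq genes, with all RefSeq genes as grey bars and those with a listed window as blue bars. SLC25 had 21 of 48 genes listed and SLC35 15 of 31, while SLC22 had 2 of 21 and SLC6 0 of 19.

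Listed members carried fewer windows per gene than other listed protein-coding genes, and so did TMEM genes, a group of membrane proteins taken up below. Over all listed windows the median signal value was 1.83 in both. The median was 2 windows per gene, against 3 in the others. A single window was listed in 42 members (36.8%, against 28.8%). The highest number listed for any gene was 9, which is read as 9 or more, and 12 members reached it (10.5%), beside a background of 12.8% of all listed protein-coding genes. The strongest window of a member had a median signal value of 2.12 (95% interval of the median 1.99 to 2.25, range 1.03 to 4.41), against 2.23 in other protein-coding genes, which lies within that interval. A signal value of at least 2 was reached by 65 of 114 members (57.0%, Wilson 95% interval 47.8 to 65.7), beside 69.5% of all. A q-value of at most 0.001 was reached by 68 of 114 (59.6%, 50.5 to 68.2), beside 66.8% of all. These intervals cover counting error only, and genes are not replicates.

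The difference in this median varied with the number of windows. With 1 window the median strongest signal value was 1.94 in 42 members and 2.08 in other genes. With 2 to 3 windows it was 2.17 and 2.14, and with 4 to 8 windows 2.46 and 2.37. With 9 windows it was 2.10 in 12 members and 2.49 in 842 other genes. How many windows had been tested in a gene was estimated in 102 members and 5697 other genes. The estimate was the ratio of q-value to p-value at the largest p-value, times the number of listed windows. Genes at 9 windows and those that gave no estimate were left out. The median number tested was 32 in both. The median share of tested windows that were listed was 6.56% in these members and 8.33% in the others. For scale, 74 listed genes with a TMEM symbol, another large group of membrane proteins, had a median strongest value of 2.22. These TMEM genes had a median of 2 windows, with 43.2% at 1 window and 2.7% at 9. Fewer windows per gene were thus not particular to solute carriers.

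**Figure D2:**
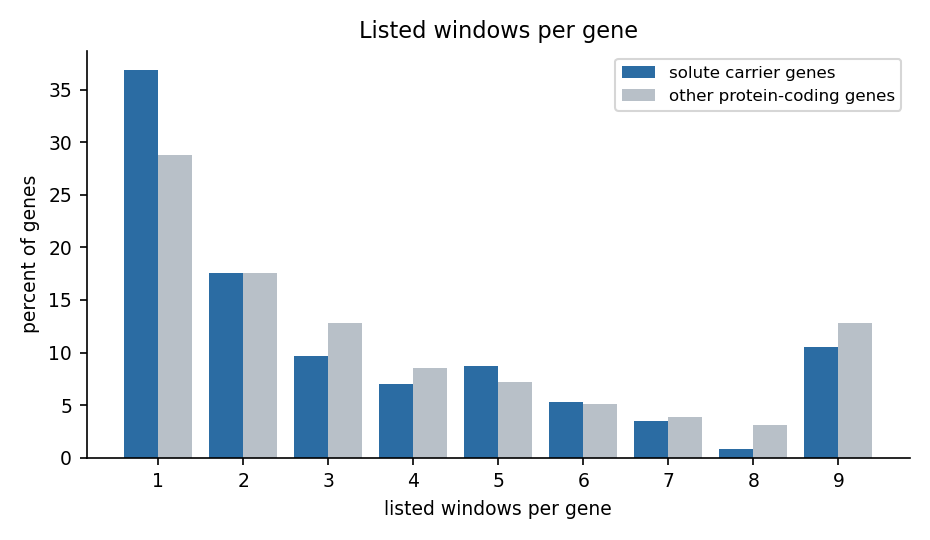
Share of genes (vertical axis, percent) by number of listed windows per gene (horizontal axis), for 114 solute carrier genes and for other protein-coding genes. Members lay above the others at 1 window (36.8% against 28.8%) and below them at 9 (10.5%).

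The members with the largest signal values came from several transport classes. SLC25A36 (ENSG00000114120), a mitochondrial carrier of pyrimidine nucleotides, had the largest. Its 7 windows had signal values of 2.01, 4.41, 2.59, 3.56, 1.42, 1.65 and 1.65 from 5′ to 3′. The first 5 of them adjoined each other from 5 bases before to 244 bases after the RefSeq start, and the strongest was chr3:140941881-140941930 on the plus strand.

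SLC7A11 (ENSG00000151012), the cystine/glutamate exchanger that supplies cystine for glutathione, came next. Its 4 windows had signal values of 2.15, 2.00, 3.39 and 3.85 in order of position, and all lay within 400 bases, at chr4:138241898-138242297 on the minus strand. The 2 strongest were adjoining. They also had q-values listed as 0, which stands for a value below the numeric limit of the calculation.

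SLC29A4, a plasma membrane monoamine and nucleoside transporter, had windows at 3.04, 3.32, 2.48 and 2.48. The 2 strongest lay upstream of the gene's RefSeq interval, at distances of more than 2000 bases from its start. SLC17A9, a vesicular nucleotide transporter, had 5 windows at 3.31, 2.71, 2.24, 2.86 and 2.63. SLC25A37 (mitoferrin-1), which brings iron into mitochondria, had 2 adjoining windows at 3.31 and 2.15. All windows of these 3 genes were thus above 2.

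SLC9A7, a sodium/proton exchanger of the Golgi, had 9 windows between 2.12 and 3.21. Of these, 7 adjoined each other within 500 bases of the start, a block of 350 bases, a length that only SLC33A1 also reached among the members, and its 5′ end gave the SLC9A7 stretch printed above. SLC16A3 (MCT4), which exports lactate, had 8 windows at 1.10, 2.42, 2.92, 2.21, 2.00, 2.58, 1.49 and 1.35, and 6 of them, the strongest included, lay past the 3′ end of its RefSeq interval. The assignment of these 6 windows to SLC16A3 is that of the deposited table, and the strongest window inside the interval was at 2.42.

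SLC35E2A and SLC7A6OS both had a strongest signal value of 2.88. SLC35E2A is a transcribed pseudogene in RefSeq and near-identical to SLC35E2B (9 windows, strongest 2.09), so reads could be split between them, and 2 of its 6 windows were shared with a long non-coding RNA. SLC7A6OS is named for lying opposite SLC7A6 and is not a transporter. At the other end were SLC25A39, a mitochondrial glutathione carrier, with 1 window at 1.03, SLC39A1, a zinc importer, with 1 at 1.19, and SLC25A5, an ADP/ATP carrier, with 2 at 1.27 and 1.00.

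**Figure D3:**
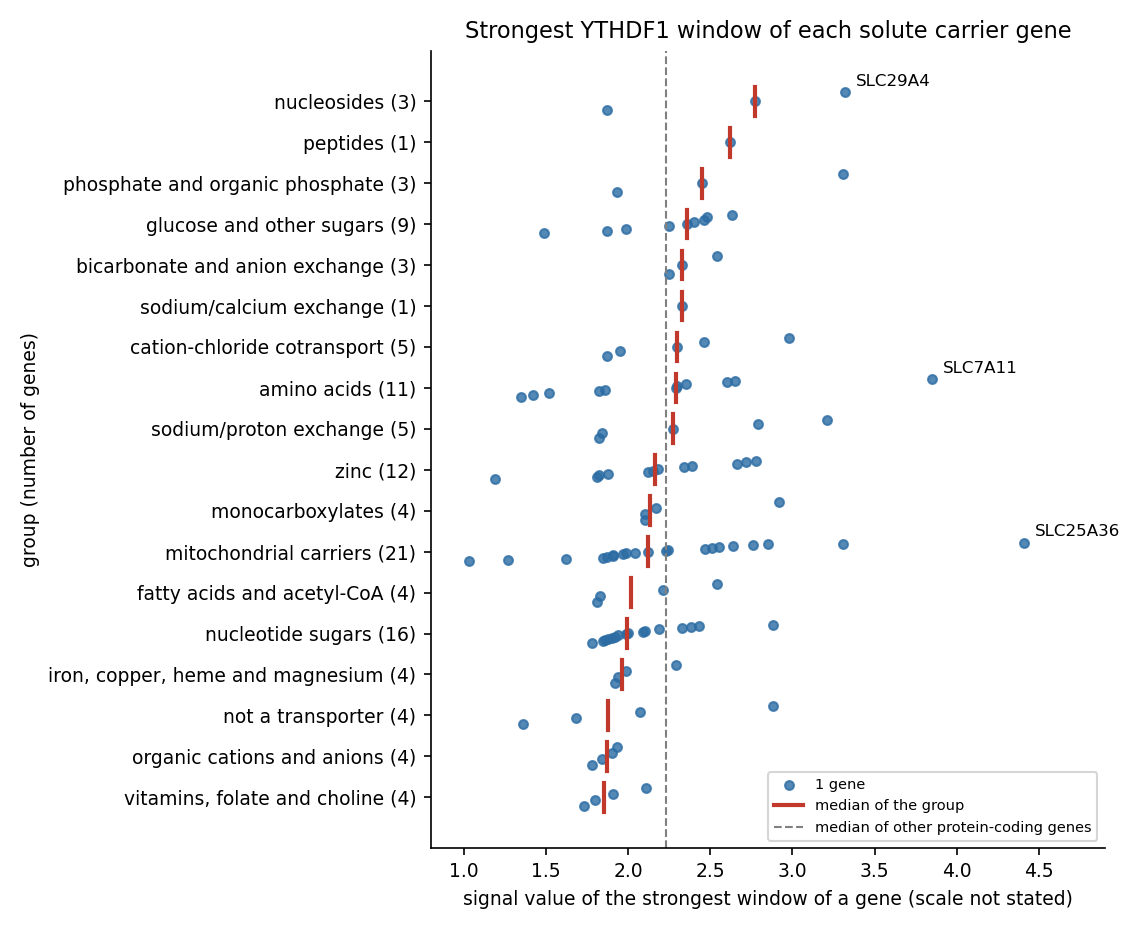
Strongest signal value (horizontal axis, scale not stated) of each solute carrier gene, 1 point per gene, by transport class with the number of genes in brackets. Red bars are class medians and the dashed line is the median of other protein-coding genes, 2.23. SLC25A36 at 4.41 and SLC7A11 at 3.85 stood above the rest, and SLC25A39 at 1.03 was lowest.

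Amino acid transporters, grouped by family number, were listed for 11 genes with 45 windows, and their strongest values had a median of 2.29. In RefSeq terms this was 12 of 64 genes, the additional one being TMEM104. A q-value of at most 0.001 was reached by 10 of the 11, beside 66.8% of all listed protein-coding genes, and a signal value of at least 2 by 6, beside 69.5%. SLC7A5 (LAT1), the leucine transporter, had 7 windows at 0.83, 1.08, 1.33, 1.12, 1.37, 1.65 and 2.65 in order of position, and on its minus strand the value was largest at the start of the gene. SLC3A2 (4F2hc), the heavy chain that pairs with SLC7A5 and SLC7A11, had 4 windows at 2.29, 0.98, 1.91 and 0.82. Its strongest window, the one printed above, also lay at the start. The partners of this heterodimer thus each had the largest value at the 5′ end. In SLC3A2 the window at 1.91 had a lower q-value than the strongest one, 1.65e-09 against 6.76e-05. For scale, the strongest window lay within 500 bases of a start in 42.4% of members and 37.8% of other genes.

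Of the neutral amino acid transporters, SLC43A2 had 1 window at 2.60 and SLC7A6 3 windows with a strongest value of 2.30. SLC43A3, placed in the class by its family number only, had 2 at 1.41 and 1.86, of which 1 was shared with another gene. Among glutamine transporters, SLC38A1 had 2 windows at 2.35 and 2.32, SLC1A5 (ASCT2) 2 with a strongest value of 1.82, and SLC38A2 (SNAT2) 5 at 1.26, 1.16, 0.94, 1.52 and 0.98. The cationic amino acid transporter SLC7A1 had 9 windows, the most listed, but none above 1.42, and SLC38A10 was lowest of the class at 1.35. A large number of windows therefore did not always come with a large signal value in this class, though SLC7A5 had 7 windows and reached 2.65. SLC7A11 at 3.85 and SLC38A10 at 1.35 spanned the class.

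Sugar transporters were listed for 9 genes with 38 windows, with a median strongest value of 2.36. SLC2A3 (GLUT3) was highest, with 4 windows at 1.92, 2.43, 1.87 and 2.63 in order of position. SLC2A1 (GLUT1), the ubiquitous glucose transporter, was lowest, with 2 adjoining windows at 1.49 and 1.26. The 2 glucose transporters thus stood at opposite ends of their class. Among monocarboxylate transporters, 4 of 14 genes were listed, with 28 windows. SLC16A1 (MCT1), the lactate and pyruvate transporter, had 9 windows between 0.94 and 2.10. This was below SLC16A3, at 2.92 past the 3′ end of its RefSeq interval and at 2.42 inside it. BSG, the chaperone of SLC16A1 and SLC16A3, had 3 windows with a strongest value of 2.24.

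**Figure D4:**
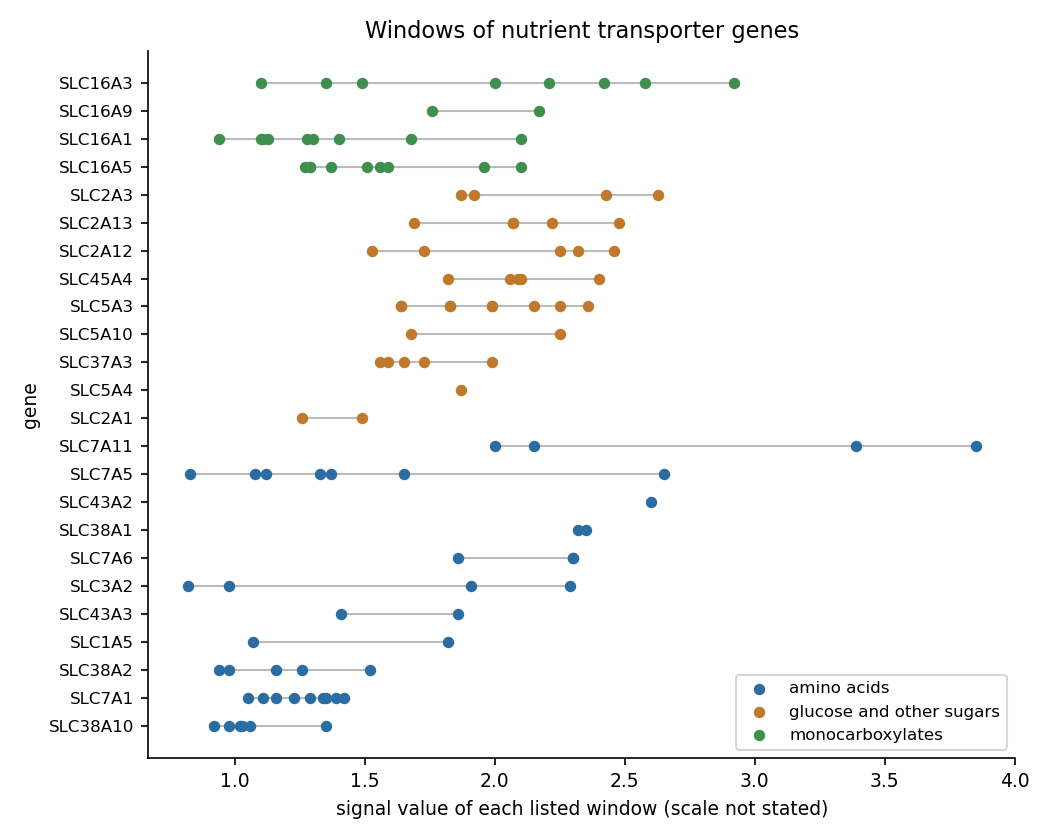
Signal value (horizontal axis, scale not stated) of every listed window, 1 point per window, in the listed amino acid, sugar and monocarboxylate transporters, with a line from the lowest to the highest window of a gene. SLC7A11 reached 3.85 and SLC16A3 2.92, the latter past the 3′ end of its RefSeq interval, while the windows of SLC2A1 lay at 1.49 and 1.26.

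Zinc transporters were listed for 12 of 25 genes, with 42 windows and a median strongest value of 2.17. The SLC30 family moves zinc out of the cytosol and the SLC39 family into it. All 5 listed SLC30 genes reached a signal value of 2 (2.15 to 2.78, median 2.66), and 3 of 7 SLC39 genes did (1.19 to 2.39, median 1.88), beside 69.5% of all listed protein-coding genes. Among the SLC39 genes, SLC39A3 at 2.12 and SLC39A1, the lowest, had only windows shared with another gene. SLC30A1 (ZnT1), the exporter of the plasma membrane, led with 4 windows at 1.86, 2.78, 1.86 and 2.13. SLC39A14, which also carries iron, led the importers at 2.39. SLC39A9 followed at 2.34, with 9 windows that all lay within the first 573 bases of the gene. SLC39A10 had none. The difference between the families rests on 12 genes and was not tested.

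Iron, copper, heme and magnesium transporters were listed for 4 of 11 genes, namely the magnesium transporters SLC41A1 at 2.29 and SLC41A2 at 1.99 and the copper transporters SLC31A1 at 1.94 and SLC31A2 at 1.92. The iron exporter SLC40A1 (ferroportin) and the SLC11 iron importers had no listed window. Iron carriers of mitochondria were listed, with SLC25A37 at 3.31 and its relative SLC25A28 (mitoferrin-2) at 1.85. The transferrin receptor TFRC had 1 window at 1.95, and FLVCR1 3 with a strongest value of 2.72.

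The 21 mitochondrial carriers of SLC25 had 58 windows, a median strongest value of 2.12 and the widest range of any family, from 1.03 to 4.41. Below SLC25A36 and SLC25A37 came SLC25A46, an outer membrane protein of mitochondrial dynamics, at 2.85, and SLC25A24, an ATP-Mg/phosphate carrier, at 2.76. The ADP/ATP carriers SLC25A4 at 1.87 and SLC25A5 at 1.27 were low. The 16 SLC35 genes had 50 windows in a narrow range, from 1.78 (SLC35B2) to 2.88 (SLC35E2A) with a median of 1.995, and SLC35F5 had 1 window at 1.85. A single window was listed in 7 of the 21 SLC25 genes and 7 of the 16 SLC35 genes, beside 29.0% of all listed protein-coding genes.

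Ion transporters were listed in smaller numbers. The cation-chloride cotransporters had 5 of 9 genes listed with a median of 2.30. SLC12A2 (NKCC1) had 1 window at 2.30, and SLC12A9 was lowest at 1.87. Of the sodium/proton exchangers, 5 were listed with a median of 2.27. The phosphate transporter SLC20A1 had 1 window at 1.93. The 4 organic ion transporters reached at most 1.93 and the 4 vitamin transporters at most 2.11. No member of either class had a q-value of at most 0.001, beside 66.8% of all listed protein-coding genes. A single window was listed in 2 of the organic ion transporters and in all 4 vitamin transporters, beside 29.0% of all listed protein-coding genes. The classes were not tested.

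Windows of members lay near transcript starts more often than those of other genes, by counts of windows but not of genes. A RefSeq start was available for 92 members with 286 windows. Of these windows, 119 (41.6%, Wilson 95% interval 36.0 to 47.4) lay within 500 bases of a start, against 30.5% of 19218 windows in other genes and 39.1% of 174 windows in TMEM genes. Windows of 1 gene are not independent, and over genes 46 of 92 members (50%) had such a window, against 52.5% of others. A window in the first 50 bases of a transcript was present in 18 of 92 members (19.6%), beside a background of 20.7%. Counting the strongest window of each gene only, 42.4% of members and 37.8% of others lay within 500 bases. The 119 windows near a start had a median signal value of 1.91, and the 167 farther away 1.77.

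**Figure D5:**
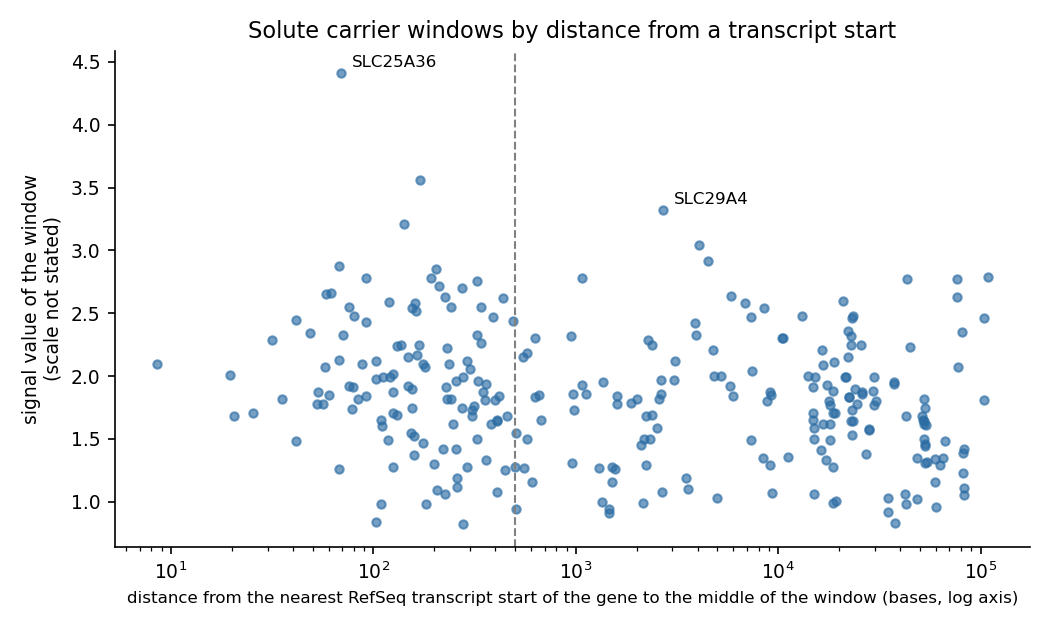
Signal value (scale not stated) of solute carrier windows against the distance from the nearest RefSeq transcript start of the gene to the middle of the window, in bases on a log axis. The dashed line is at 500 bases. Of 286 windows, 119 lay at least partly within that distance, with SLC25A36 at 4.41. SLC29A4 reached 3.32 beyond it, in a window upstream of the gene's RefSeq interval.

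Where genes overlap, a window could be listed for more than 1 of them. On the same strand, 40 of 377 member windows (10.6%) in 10 genes overlapped a window of another gene, against 9.99% in other protein-coding genes. All windows of SLC25A32, SLC35F6, SLC39A1 and SLC39A3 were shared in this way, and 8 of 9 were in SLC5A3, SLC33A1 and SLC35E1, so the values of these genes cannot be ascribed to the member alone. A further 2 member windows overlapped one on the opposite strand. Of 72 members with 2 or more windows, 12 had all of them in 1 unbroken block. In 30 of the 72 the first and last window lay more than 10000 bases apart. The same counts were not made for other genes, so neither is read as a trait of members.

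Outside the SLC symbols, 13 of 38 other transporters and transport regulators had a window, beside 31.8% of all RefSeq protein-coding genes. Their median strongest value was 2.24, against 2.23 in all listed protein-coding genes, so both lay near the background. The highest were MFSD14A at 3.14 and MFSD14B at 3.01, which RefSeq now names within the SLC series, and the lowest was the drug exporter ABCC1 at 1.13. Among transcription factors that control transporter genes, NFE2L2 had 8 windows with a strongest value of 2.06, HIF1A reached 2.25 and MYC 2.09, while ATF4 had none. The 7 organic anion transporters of the SLCO group that were looked up had none.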

How the data were processed

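RIP-seq windows of YTHDF1 in SNU638 cells were taken from 1 deposited table covering 4 libraries. The submitters' processing notes name STAR 2.7.3a and GRCh38; the peak caller is not given in the sources used here. The signal value of each window is a score given by the authors, with no stated scale, and the p-value and q-value are also deposited values. No column belonged to a single library (0 such columns were left unused), so no IP-YTHDF1 against input test, although planned, could be run and depth is unknown.

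Of the rows, 1 exact repeat was dropped. Genes were counted by identifier, with the largest signal value of a gene as its strongest. Positions count from 1. The number of windows tested was the ratio of q-value to p-value at the largest p-value of a gene, times its number of listed windows. This number was whole within 0.5% in 99.5% of 1913 genes with 1 window. RefSeq (GRCh38.p14) gave symbols, starts and sequences. Shares have Wilson 95% intervals, which cover counting error only. Named genes were the 10 strongest and 3 weakest members, the members of the glucose, amino acid, zinc and iron classes, a list of 18 well-known carriers, the strongest member of larger families, and a list of other transporters; further names were chosen after their values were seen. Some items that this rule names are not reported here. Members and lists were chosen with earlier results of these data known. Only the estimate of the number of windows tested was checked on simulated data. Alternatives were stricter limits on q-value and signal value, unshared or joined windows, other summaries per gene and other distances. The software was Python 3.11.15 with SciPy 1.17.1, NumPy 2.4.6 and pandas 2.3.3, and matplotlib 3.10.9 for plots.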

Additional observations from a re-analysis of the deposited data

Results flagged for a closer look

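The comparisons above use protein-coding genes only, and windows were also listed for 5 non-coding genes with SLC symbols. SLC5A4-AS1 had 9 windows, the most listed for any gene, with signal values from 1.43 to 2.42. SLC16A1-AS1 had 2, at 2.04 and 2.24. SLC2A3P1, a processed pseudogene, had 1 at 2.33, SLC7A5P2, a transcribed processed pseudogene, had 1 at 1.93, and SLC9A3-AS1 had 1 window at 1.87. Antisense genes overlap their partner, and pseudogenes resemble their parent, so the source of these reads is uncertain.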

How the results depend on the processing

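Stricter limits lowered the counts and raised the median. With a q-value of at most 0.001, 68 members with 175 windows were left, the median strongest signal value was 2.39 (others 2.42) and 1.47% of members had 9 windows (others 0.341%). With a signal value of at least 2, 65 members with 128 windows were left, the median was 2.40 (others 2.41) and 1.54% had 9 (others 0.0874%). Under both limits the medians were closer than over all windows, and the order of the shares at 9 windows turned, with 1 member left at 9 windows. The signal limit cuts on the value that is summarized, so closer medians under it say nothing about the members. When the mean of a gene's windows replaced the strongest, the median was 1.92 in members and 1.93 in others. The share of windows within 500 bases of a start was 52.8% (others 37.2%) under the q-value limit and 52.7% (others 42.4%) under the signal limit, and 29.7% within 250 bases. Leaving out shared windows gave 110 members, 337 windows, a median of 2.10 (others 2.19) and 7.27% at 9 windows (others 11.8%). Joining windows left 259 blocks of 377 windows. Transporters only were 110 members with 370 windows and a median of 2.12. The median was 1.99 (others 2.11) in genes with 1 to 3 windows and 2.12 (others 2.19) without genes at 9 windows, where the share near starts was 44.4% (others 32.9%). Alternatives for transporters only and for distances were chosen after seeing the data. No paired analysis was possible because no column belongs to 1 library. Replicate blocks, leaving out a library, edgeR, shares by transcript region and widened motif windows were not run, because values per library, exon annotation and a genome were not used here.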
